A study of Mus musculus with 4 samples.

Results

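Integrins are the cell surface receptors that hold cells to extracellular matrix, and collagens and laminins are major proteins of that matrix. The genes described here are the 76 genes of the count tables whose symbols name a numbered integrin chain or the av chain, a numbered collagen chain or a laminin chain, out of 27933 genes in all. They comprise 13 integrin alpha genes, 8 integrin beta genes, 44 collagen genes and 11 laminin genes. RNA-seq was done on melanocyte stem cells, which renew the pigment cells of hair follicles, sorted by flow cytometry from mouse skin. Control mice (2 libraries) were injected with saline and stressed mice (2 libraries) with RTX, an agent the labels give by abbreviation only, and both groups were harvested 12 h later. Strain, genotype and age are not stated in the sources used here, and nothing says that the libraries of a group came from separate mice, so p-values measure only how far these libraries differ, and that spread may be technical.

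An integrin is a pair of 1 alpha and 1 beta chain, and the pair decides which matrix protein is bound. Laminins are trimers of an alpha, a beta and a gamma chain that form the sheet of the basement membrane on which epithelial cells and follicle melanocytes sit, with a second sheet made of type IV collagen. In skin, basal keratinocytes are fastened to this membrane by hemidesmosomes, built from the chains encoded by Itga6 and Itgb4, the transmembrane collagen encoded by Col17a1 and a laminin with chains encoded by Lama3 and Lamb3, while type VII collagen, encoded by Col7a1, anchors the membrane to the dermis. Fibrillar collagens form the fibres of the dermis itself and are made mainly by fibroblasts.

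Promoter sequences are shown for 4 members on which the comparison below turns: Col7a1 and Lamb3, the only members called by DESeq2, and Itga5 and Itgb1, the 2 chains of the classical fibronectin receptor, which were both higher in both stressed libraries. They are the 250 bases before the annotated start, on the gene's own strand, from RefSeq on GRCm38.p6, whose coordinates are those of mm10. The start is that of the RefSeq table, which for Lamb3 lies inside the bounds given below and for Itga5 just outside them. The windows lie at chr9:108953336-108953585 (plus strand) for Col7a1, chr1:193301744-193301993 (plus strand) for Lamb3, chr15:103366792-103367041 (minus strand) for Itga5 and chr8:128685404-128685653 (plus strand) for Itgb1. Capitals mark matches on either strand to any of 7 motifs: the AP-1 site TGANTCA, the E-box CACGTG and the related sequence CATGTG, both bound by factors such as MITF, the GC box GGGCGG, the TATA box in the form TATAAA, the box named for its letters CCAAT and the cAMP response element TGACGTCA.
Col7a1: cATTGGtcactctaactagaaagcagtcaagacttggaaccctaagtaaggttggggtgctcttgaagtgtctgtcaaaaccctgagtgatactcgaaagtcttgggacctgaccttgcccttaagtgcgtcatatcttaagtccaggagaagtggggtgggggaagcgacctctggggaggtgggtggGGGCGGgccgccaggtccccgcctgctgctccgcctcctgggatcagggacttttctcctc
Lamb3: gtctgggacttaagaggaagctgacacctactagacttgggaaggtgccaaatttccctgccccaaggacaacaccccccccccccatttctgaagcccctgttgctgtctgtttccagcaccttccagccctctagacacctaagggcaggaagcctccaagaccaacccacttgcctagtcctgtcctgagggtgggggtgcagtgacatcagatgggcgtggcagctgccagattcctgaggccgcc
Itga5: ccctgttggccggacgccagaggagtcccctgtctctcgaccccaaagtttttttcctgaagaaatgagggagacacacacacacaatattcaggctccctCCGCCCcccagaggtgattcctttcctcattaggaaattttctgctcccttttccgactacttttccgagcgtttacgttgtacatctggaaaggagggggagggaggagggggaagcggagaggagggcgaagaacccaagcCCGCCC
Itgb1: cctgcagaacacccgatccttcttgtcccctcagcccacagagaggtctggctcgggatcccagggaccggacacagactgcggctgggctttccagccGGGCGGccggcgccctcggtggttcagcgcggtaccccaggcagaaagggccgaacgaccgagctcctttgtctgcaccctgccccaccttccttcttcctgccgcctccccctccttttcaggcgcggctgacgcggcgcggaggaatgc
Col7a1 has a GC box 61 to 56 bases before its start and a CCAAT box on the opposite strand 249 to 245 bases before it. The Lamb3 window holds none of the 7 motifs. Itga5 has GC boxes on the opposite strand 149 to 144 and 6 to 1 bases before its start, and Itgb1 has 1 GC box, 151 to 146 bases before. The GC box occurs in 30 of the 62 windows of the 56 members matched in the promoter table (48.4%), against 32.7% of all 32851 windows of this length. The CCAAT box is in 25.8% of member windows and 33.8% of all, and CATGTG in 12.9% and 12.3%. TGANTCA was found in 1 member window, against 6.75% of all windows. CACGTG and TGACGTCA were found in none of the 62, against 6.02% and 1.55% of all. TATAAA is in 8.06% of member windows and in 12.4% of all.

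Libraries held between 9273652 and 11854280 counts, of which the 76 genes took between 0.371% and 0.443%. Where a gene has 0 counts, up to 3 are allowed, which equal between 0.253 and 0.323 counts per 1000000 (CPM). This limit covers counting error only, because without molecular identifiers 2 reads may come from 1 molecule. The sorted cells' identity was checked against marker lists that hold no integrin, collagen or laminin. Summed markers of melanocytes (10 genes) were at 23591 CPM in control replicate 1, 22861 in control replicate 2, 41017 in stressed replicate 1 and 38521 CPM in stressed replicate 2. Keratinocyte markers (16 genes) were at 30737, 18917, 12480 and 10841 CPM in the same order, and all 16 had negative fitted log2 differences. DESeq2 called 8 of the keratinocyte markers lower (background 2.67%) and 3 of the melanocyte markers higher (background 1.73%). Fibroblast markers summed to between 0.75 and 21.0 CPM, with Lum and Twist2 at 0 in every library and Pdgfra at 0 in both controls. Endothelial markers summed to between 8.64 and 15.7 CPM, with Cdh5 and Cldn5 at 0. Immune markers summed to 44.0 CPM in control replicate 2 and to at most 10.8 CPM elsewhere. Schwann cell and nerve markers summed to between 1150 and 1700 CPM, with overlapping groups. Mural and muscle markers (8 genes, Des at 0) summed to 69.5, 80.7, 175 and 266 CPM, most of it Cspg4, and DESeq2 called Cspg4 and Actg2 higher. In bulk RNA, fewer cells of a type and less RNA per cell cannot be told apart.

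Of the 76 members, 74 had at least 1 count in some library, 58 had a count in every library and 46 had at least 10 counts in every library. Col22a1, a fibril-associated collagen, and Col6a4, a beaded filament collagen, had 0 counts in all 4 libraries. After the filter on low counts 61 members were tested: all 13 integrin alpha genes, 6 of 8 integrin beta, 32 of 44 collagen and 10 of 11 laminin genes. The 15 others had at most 30 counts in any library. Besides the 2 at 0 they were Col2a1, Col6a3, Col6a5, Col9a1, Col9a2, Col10a1, Col13a1, Col19a1, Col24a1, Col26a1, Itgb2, Itgb7 and Lamc3. Itgb2 and Itgb7 encode the beta chains of leukocyte integrins, and they had at most 12 and 7 counts. Col1a1 was the 1 tested member that passed the filter in the control group alone, and it enters the counts of negative and lower members given below.

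Expression was concentrated in few genes. Col16a1, Itgb1 and Col12a1 held 43.3% of the members' summed mean CPM, and the 10 leading members held 77.0%. Per kilobase of the exon length in the count tables, the scale on which genes can be compared, Itgb1 was the highest member at a mean of 139 CPM per kilobase over the 4 libraries, followed by Col16a1 at 94.0, Col17a1 at 76.9, Lamb2 at 36.7 and Col12a1 at 33.5. The leading alpha chain was Itga6 at 24.2 CPM per kilobase, ahead of Itga5 at 10.7, Itga9 at 10.2, Itga3 at 9.56 and Itgav at 9.18. The chains of the main dermal fibres were low: Col1a1 at 0.158, Col1a2 at 0.23 and Col3a1 at 0.265 CPM per kilobase. Not divided by length, these means were 1.04, 2.86 and 2.61 CPM, above the limit given for 0 counts. Col3a1 had 22 and 52 counts in the controls, 39 in stressed replicate 1 and 0 in stressed replicate 2.

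**Figure D1:**
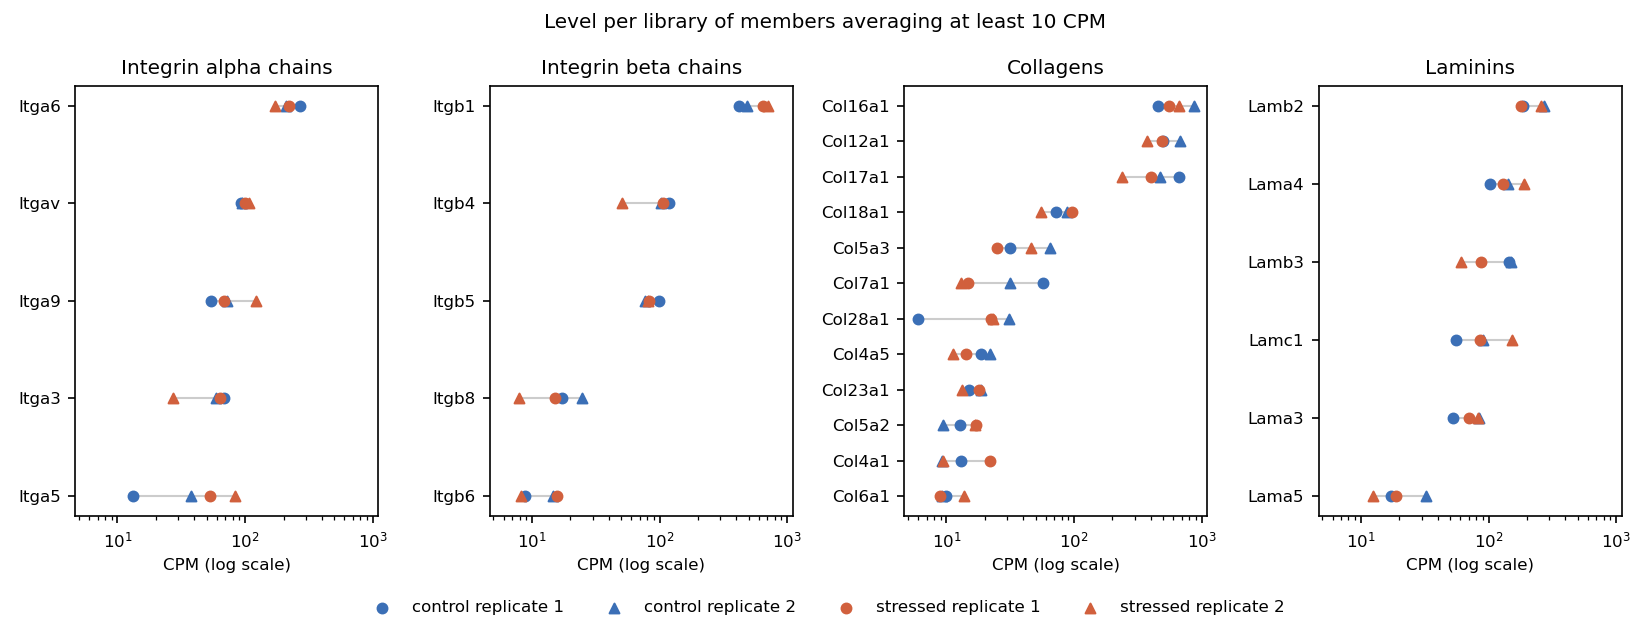
Level of 28 members that averaged at least 10 CPM, by family. Each row is a gene, the horizontal axis is CPM on a log scale, blue symbols are the 2 control libraries and orange symbols the 2 stressed libraries, circles are replicate 1 and triangles replicate 2, and the grey line joins the lowest and highest library. Itgb1 stands at 423 and 486 CPM in control and 641 and 713 CPM in stressed cells, while the symbols of most other genes overlap between the groups.

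Few of these genes were called different between stressed and control cells. With edgeR's quasi-likelihood test, adjusted over all 13348 genes tested, 0 of the 61 members were called (background 0.0%), as were 0 of all genes, and the smallest adjusted p among members was 0.151. At an unadjusted p below 0.05 there were 8 members, 4 higher and 4 lower, against a background of 5.17% higher and 7.6% lower. Limma-voom likewise called 0 members (background 0.0%), with 9 at an unadjusted p below 0.05 (background 12.7%). DESeq2 called 2 members, Col7a1 and Lamb3, both lower (background 2.67%), and 0 higher (background 1.73%). Both stressed libraries lay above both controls in 9 members (background 21.8%) and below both in 11 (background 22.9%). The shares of members called or separated were thus near or below those of all genes, of which DESeq2 called 4.4% in either direction. With control replicate 1 left out, edgeR called 3 members (Itgb3, Col7a1 and Lamb3, background 4.52%) and DESeq2 called 2 (Itgb3 and Lamb3, background 3.43%). With control replicate 2 left out, edgeR called 4 (Itga5, Itga7, Col7a1 and Col28a1, background 5.34%) and DESeq2 called 8 (the same 4 with Itgb1, Col17a1, Lamb3 and Lamc1, background 5.78%). With stressed replicate 1 or stressed replicate 2 left out, neither called a member, at DESeq2 backgrounds of 1.02% and 0.316%. Without the filter on low counts, edgeR called 1 member higher (Itga5, background 1.35%) and 2 lower (Col7a1 and Lamb3, background 2.67%).

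By family, the integrin alpha genes had a median fitted log2 fold change, stressed over control, of 0.50, with 8 of 13 positive, and the integrin beta genes of -0.04, with 3 of 6 positive. The 19 tested integrin genes had a median of 0.14. The 32 tested collagen genes had a median of -0.32, with 22 negative, and the 10 tested laminin genes had a median of -0.02, with 5 negative. Summed over its genes, the integrin family was at 1195 and 1219 CPM in control and at 1416 and 1413 CPM in stressed cells, without overlap, and Itgb1 alone held 72.9% of the summed mean CPM of the beta genes. The collagen genes summed to 1925 and 2380 CPM in control and 1769 and 1535 CPM in stressed cells, also without overlap, and the laminin genes to 644, 847, 651 and 795 CPM, with overlap. These sums were not tested. With Itgb1 taken out, the integrin sum overlapped between the groups, and with Col17a1 taken out, so did the collagen sum. Neither separation is therefore read as a shift of the whole family. The median log2 fold change over all genes tested was -0.01, with 50.9% negative. The collagen median turned positive, to 0.18, without control replicate 2, and was 0.01 without stressed replicate 2. That of the integrins turned negative without control replicate 1 (-0.08) and without stressed replicate 1 (-0.29).

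**Figure D2:**
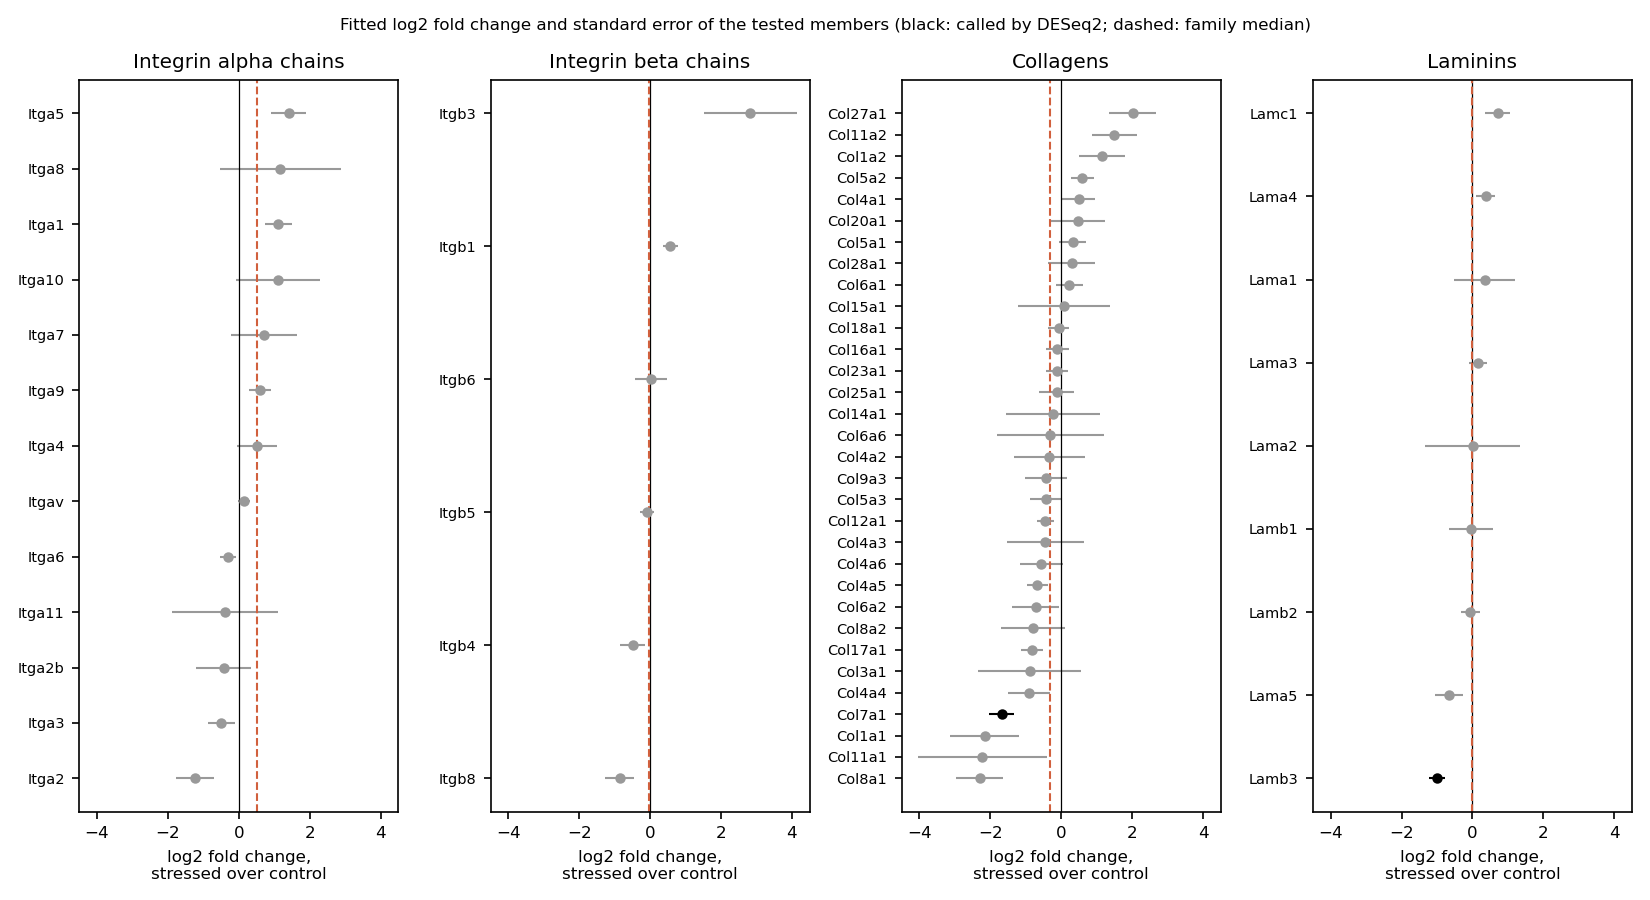
Fitted log2 fold change, stressed over control, of 60 tested members by family. Points are edgeR estimates, bars are 1 standard error, black points are the 2 genes called by DESeq2 (Col7a1 and Lamb3) and the dashed orange line is the family median. Positive and negative values occur in each family, and the bars of genes with few counts, such as Col11a1 and Itga8, are wide.

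Among the genes of epidermal anchoring, Col7a1 and Lamb3 fell by DESeq2. Col7a1 (chr9:108953586-108984875) had 57.0 CPM in control replicate 1, 31.3 in control replicate 2, 14.6 in stressed replicate 1 and 12.9 CPM in stressed replicate 2. Both stressed libraries lay below both controls, although the controls were themselves far apart. Its DESeq2 log2 fold change was -1.67 with a standard error (SE) of 0.40 and an adjusted p of 0.00181, and edgeR gave -1.68 with an SE of 0.35 and an adjusted p of 0.151. The DESeq2 call was lost without control replicate 1 (-1.18, adjusted p = 0.233), without stressed replicate 1 (adjusted p = 0.128) and without stressed replicate 2 (adjusted p = 0.384). EdgeR called Col7a1 when control replicate 1 (-1.17) or control replicate 2 (-2.04) was left out. In those fits the spread comes from the stressed pair alone. Lamb3 (chr1:193207699-193343878), the beta chain of the hemidesmosomal laminin, stood at 146 and 151 CPM in control and at 87.3 and 60.4 CPM in stressed cells. Its controls were close together, and both stressed libraries lay below them. DESeq2 gave -1.0 with an SE of 0.27 and an adjusted p of 0.00754, and edgeR -1.01 with an SE of 0.22 and an adjusted p of 0.174. That call was lost without stressed replicate 1 (-1.29) and without stressed replicate 2 (-0.76). EdgeR called Lamb3 when control replicate 1 was left out (-1.02), again with the spread taken from the stressed pair alone.

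Lama3, the alpha chain of the same laminin, had another pattern. It was at 52.8 and 84.4 CPM in control and at 70.0 and 82.3 CPM in stressed cells, with the groups overlapping. It passed neither edgeR nor DESeq2, with an edgeR log2 difference of 0.15 (SE 0.26). Per kilobase, Lama3 was at 0.223 and 0.343 of the level of Lamb3 in the controls and at 0.494 and 0.839 in the stressed libraries. This ratio did not overlap between groups, and neither did Lamb3 alone. The Lama3 sign turned without control replicate 1 (-0.14), and 197 of its 10745 exon bases are shared with an antisense gene, whose reads cannot be told apart in unstranded counts.

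Col17a1 (chr19:47646344-47692094), the transmembrane collagen of hemidesmosomes, which hair follicle stem cells need to sustain neighbouring melanocyte stem cells, was at 667 and 468 CPM in control and at 400 and 239 CPM in stressed cells. Both stressed libraries lay below both controls, with an edgeR log2 value of -0.83 (SE 0.31), but the adjusted p was 0.346 by edgeR and 0.114 by DESeq2. Itgb4, the beta chain found in hemidesmosomes, was at 118 and 103 CPM in control and at 107 and 50.8 CPM in stressed cells. Its partner Itga6 was at 271, 210, 221 and 171 CPM in the same order of libraries, and Itga3, whose product with that of Itgb1 binds the same laminin, at 68.2, 59.2, 63.4 and 27.5 CPM. In these 3 genes stressed replicate 1 lay within the range of the controls and stressed replicate 2 was the lowest library. None was called, and without stressed replicate 2 the edgeR log2 values were -0.04 for Itgb4 and 0.00019 for Itga3. Of the 7015 exon bases of Itgb4, 537 are shared with an antisense gene. Itga2, the alpha chain of a collagen receptor of keratinocytes and platelets, was at 12.6 and 7.20 CPM in control and at 5.63 and 2.82 CPM in stressed cells, a log2 difference of -1.23 with an SE of 0.54 that was not called.

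These genes are expressed by basal keratinocytes, whose markers also lay lower in both stressed libraries. The summed markers were highest in control replicate 1, then control replicate 2, stressed replicate 1 and stressed replicate 2. The same order of libraries was followed by 6 of 61 tested members, against 7.93% of all genes, a share near the background. They include Col17a1, Col7a1, Itga2 and Col4a4. Col1a1 is also in this count, although it passed the low-count filter only through its control libraries. Lamb3, Itgb4, Itga6, Itga3 and Lama3 did not follow this order, and 4 members (Itga5, Itgb1, Itgav and Col1a2) had the reverse order, against 7.77%. Per 1000 CPM of keratinocyte markers, Col7a1 was at 1.85 and 1.65 CPM in control and at 1.17 and 1.19 CPM in stressed cells, without overlap. On the same scale Lamb3 was at 4.75 and 8.0 in control and 7.0 and 5.57 in stressed cells, and Col17a1 at 21.7 and 24.7 and at 32 and 22, so that the groups of both overlapped. Itgb4, Itga3 and Itga2 also overlapped on this scale, while Itga6 and Lama3 lay higher in both stressed libraries. Keratinocyte markers lay lower in both stressed libraries, so a gene of unchanged level lies higher on this scale. Without the scaling, 44.7% of all genes tested did not overlap between groups, and the share on this scale was not computed. The part of keratinocyte RNA in the differences was not tested.

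**Figure D3:**
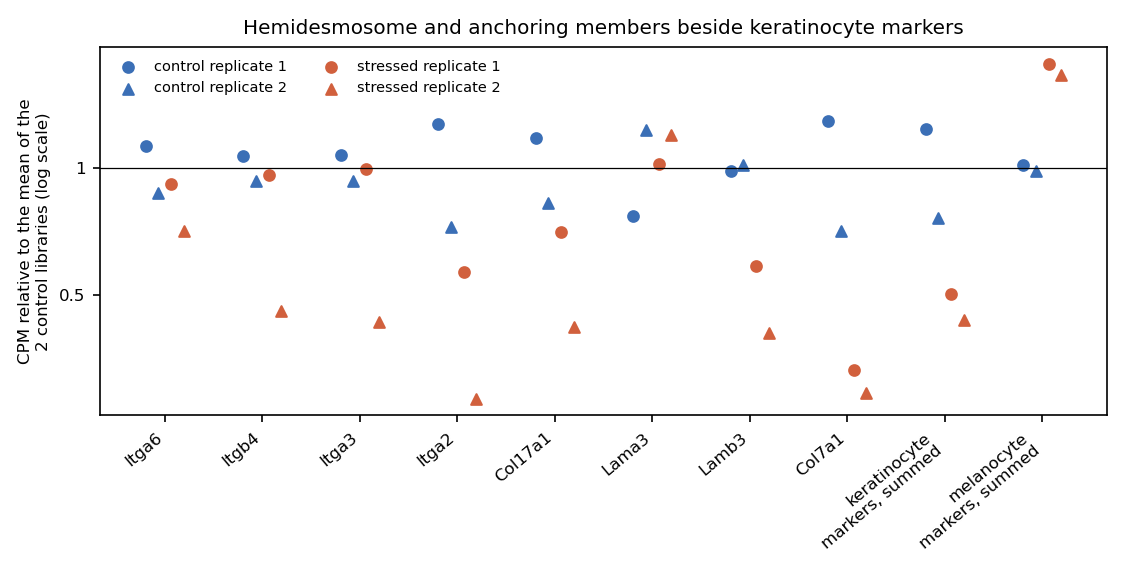
Level of 8 members of hemidesmosomes and epidermal anchoring in each library, relative to the mean of the 2 control libraries, on a log axis, beside the summed keratinocyte and melanocyte markers. Blue is control, orange is stressed, circles are replicate 1 and triangles replicate 2. Col7a1 reaches 0.332 and 0.293 of the control mean in the stressed libraries, the keratinocyte markers 0.503 and 0.437 and the melanocyte markers 1.77 and 1.66, while Itgb4 reaches 0.964 and 0.459.

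Among integrin chains that bind fibronectin and related ligands, Itga5 and Itgb1 lay higher in both stressed libraries without passing the adjusted tests on all 4 libraries. Itga5 (chr15:103344289-103366763), the alpha chain of the classical fibronectin receptor, was at 13.3 and 37.8 CPM in control and at 53.0 and 83.6 CPM in stressed cells. The groups did not overlap, but the controls differed widely. Its edgeR log2 fold change was 1.41 with an SE of 0.49 and an adjusted p of 0.316, and the DESeq2 adjusted p was 0.0604. The edgeR value ranged from 0.87 without control replicate 1 to 2.36 without control replicate 2. Itga5 was called in the latter fit, whose spread comes from the stressed pair alone. It was also called when no filter on low counts was used (adjusted p = 0.004), a setting in which 4.02% of 18926 genes were called. Itgb1 (chr8:128685654-128733200), the beta chain shared by most of the alpha chains here, was at 423 and 486 CPM in control and at 641 and 713 CPM in stressed cells. The pairs were tight, and the log2 fold change was 0.58 with an SE of 0.20, an edgeR adjusted p of 0.316 and a DESeq2 adjusted p of 0.0679. With 1 library left out its log2 fold change stayed between 0.49 and 0.68. DESeq2 called both Itga5 and Itgb1 when control replicate 2 was left out. Itga1, a collagen receptor chain named here after its values were seen, was at 5.36 and 4.83 CPM in control and 10.7 and 11.4 CPM in stressed cells, a log2 difference of 1.11 (SE 0.38, edgeR adjusted p = 0.302).

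None of the other integrin chains was called by edgeR or DESeq2 with all 4 libraries. Itgav, an alpha chain that pairs with several beta chains, was at 92.2 and 95.2 CPM in control and 100.3 and 107 CPM in stressed cells, and did not overlap between groups although its log2 difference of 0.14 was smaller than its SE of 0.17. Itgb5, a vitronectin receptor chain, was at 98.1, 76.5, 82.1 and 81.8 CPM in the 4 libraries, with overlapping groups. Itgb3, another partner of the av chain, had 11 and 0 counts in control and 40 and 49 in stressed cells. Its edgeR adjusted p was 0.441, and its fitted value of 2.83 (SE 1.32) depends in size on the control library at 0. It was 1.79 without that library, control replicate 2. Without control replicate 1 it was 8.52, with the library at 0 as the only control. Itgb8, whose product with the av chain activates latent TGF-beta, was at 17.4 and 24.5 CPM in control and 15.2 and 7.91 CPM in stressed cells, with a log2 difference of -0.86 and an SE of 0.40 (edgeR adjusted p = 0.444). Itga9, a receptor chain for tenascin and osteopontin, was at 53.7 and 71.5 CPM in control and 68.3 and 121 CPM in stressed cells, a log2 difference of 0.60 (SE 0.31). Itga4, which binds fibronectin and a vascular adhesion molecule, was at 3.43 and 10.5 CPM in control and 10.6 and 9.27 CPM in stressed cells. The groups overlapped in both. Itga7, a laminin receptor chain, was at 0.964 and 10.9 CPM in the 2 controls, one of the widest gaps within a group. Itgb6, an epithelial partner of the av chain, was at 8.89 and 14.7 CPM in control and 15.8 and 8.18 CPM in stressed cells. The alpha genes Itga8, Itga10, Itga11 and Itga2b, the last a chain of the platelet fibrinogen receptor, had at most 4.22 CPM in any library, and their groups overlapped.

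Ratios between chains were described per kilobase and not tested. The 12 alpha chains that can pair with the product of Itgb1 summed per kilobase to 0.632 and 0.56 of Itgb1 in the controls and to 0.464 and 0.427 in the stressed libraries. Itga5 was at 0.101 and 0.371 of Itga6 per kilobase in control and at 0.496 and 1.01 in the stressed libraries. Itgb1 was at 6.14 and 8.10 times Itgb4 in the controls and at 10.3 and 24.1 times in the stressed libraries. In these 3 ratios the groups did not overlap, but Itgb1 and Itga5 lay higher in both stressed libraries on their own. No share over other pairs of genes was computed. Itga6 was at 1.78 and 1.58 times Itgb4 in control and at 1.61 and 2.61 times in stressed cells, so that the ratio of the hemidesmosome pair overlapped between the groups.

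Of the laminin genes other than Lamb3, none was called by either tool with all 4 libraries. Lamb2, the most abundant laminin gene, was at 185 and 270 CPM in control and 180 and 258 CPM in stressed cells, so that the spread within each group exceeded the difference between them. Lamc1, a gamma chain of many laminins, was at 55.3 and 89.8 CPM in control and 85.5 and 152 CPM in stressed cells, a log2 difference of 0.71 with an SE of 0.35 (edgeR adjusted p = 0.46). DESeq2 called it only with control replicate 2 left out. Lama4, an alpha chain of vessel and mesenchymal basement membranes, was at 103 and 143 CPM in control and 129 and 190 CPM in stressed cells. Lama5, the broad epithelial alpha chain, was at 17.4, 32.1, 19 and 12.4 CPM, and Lamb1 at 9.32, 4.66, 9.86 and 3.73 CPM in the 4 libraries in the same order. The groups overlapped in all 4 of the genes named last, Lamc1, Lama4, Lama5 and Lamb1. Lama1 and Lama2 averaged under 3 CPM in each group.

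Among collagens, the 2 most abundant fibril-associated genes had control libraries that lay farther apart than the 2 group means. Col16a1 was at 453 and 863 CPM in control and 559 and 663 CPM in stressed cells, with a log2 difference of -0.11 (SE 0.33) whose sign turned when control replicate 2 (0.43) or stressed replicate 1 (0.01) was left out. Col12a1 was at 499.6 and 676 CPM in control and 488 and 375 CPM in stressed cells, with a log2 difference of -0.45 and an SE of 0.25. Col18a1, the basement membrane collagen from which endostatin is cut, was at 72.5, 87.9, 97.3 and 55.6 CPM.

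The 6 type IV collagen genes, the network formers of basement membranes, had a median log2 fold change of -0.51, with 5 negative and 0 called. Col4a1 (chr8:11198423-11312826) and Col4a2 (chr8:11312805-11449287), which encode the common trimer, lie head to head, and their exons share 22 bases. Col4a1 was at 13 and 9.23 CPM in control and 21.8 and 9.46 CPM in stressed cells. Col4a2 was at 1.18 and 13.1 CPM in control and 8.07 and 3.36 CPM in stressed cells. The sign for Col4a2 (log2 difference -0.33, SE 1.01) turned with limma-voom (0.21) and with the replicate number as a block (0.24). The ratio of Col4a1 to Col4a2 per kilobase was 9.78 and 0.625 in control and 2.4 and 2.5 in stressed cells, so that the genes of this pair did not keep a common ratio across control libraries. Col4a5, of the X chromosome, was at 18.7 and 21.9 CPM in control and 14.2 and 11.2 CPM in stressed cells, without overlap and with a log2 difference of -0.68 and an SE of 0.29 (edgeR adjusted p = 0.411). Col4a6 and Col4a3 were at 4.18 and 0.429 CPM in control replicate 1 and at 13.2 and 5.59 CPM in control replicate 2, and the stressed libraries lay between these values.

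Fibrillar collagens, of which 9 of 11 were tested, had a median log2 fold change of 0.33 with 5 positive, all at low levels. Col5a3 was the highest of them, at 31.5 and 64.7 CPM in control and 24.9 and 46.1 CPM in stressed cells. Col5a2, a chain of type V collagen, was at 12.9 and 9.49 CPM in control and 17 and 16.8 CPM in stressed cells, and Col11a2, of cartilage collagen, at 1.39 and 1.27 and at 3.66 and 3.91 CPM. Both were separated between groups and not called (edgeR adjusted p = 0.487 and 0.402). Col27a1 had 10 and 11 counts in control and 45 and 43 in stressed cells, which did not overlap (log2 fold change 2.01, SE 0.65, edgeR adjusted p = 0.291). Col1a2 had 13 and 25 counts in control and 33 and 53 in stressed cells, whereas Col1a1, whose product joins that of Col1a2 in type I collagen, had 20 and 15 and then 6 and 2 counts. Neither was called, and because Col1a1 passed the low-count filter only through its control libraries, nothing is read from its direction. The 10 fibroblast markers, 5 of them under 1 CPM in every library, summed to 0.75, 11.3, 21 and 7.82 CPM, most of it Dcn, and their part in these levels was not tested. Col8a1, a short-chain collagen of vessel walls and of the cornea, had 72 and 55 counts in control and 9 and 18 in stressed cells, a log2 difference of -2.30 (SE 0.66), a DESeq2 adjusted p of 0.0785 and an edgeR adjusted p of 0.248. Among the remaining collagens, Col23a1 and Col25a1, which like Col17a1 are transmembrane, were at 15 to 18.7 and 13.3 to 17.9 CPM, and at 9.21 to 10.4 and 5.18 to 12.8 CPM, in control and stressed cells. Col6a1, of the beaded filaments around cells, was at 9.96 and 9.32 CPM in control and 8.92 and 13.7 CPM in stressed cells. All 3 overlapped between the groups. Col28a1, a collagen of peripheral nerve named here after its values were seen, was at 6.0 and 30.8 CPM in control and at 22.2 and 23 CPM in stressed cells.

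Other genes of the pathway were counted in 3 lists. Of 33 tested genes of integrin adhesion, DESeq2 called 0 higher and 2 lower, the median log2 fold change was 0.11 and 22 were positive. Over all genes DESeq2 called 1.73% higher and 2.67% lower, and 49.1% were positive, with a median of -0.01, which is the background for all 3 lists. Fermt1, the kindlin of epithelial cells that activates integrins, fell by DESeq2 from 43.8 and 40.4 CPM to 21.7 and 14.4 CPM (adjusted p = 0.0161). Its relative Fermt2 was at 74.5 and 102 CPM in control and at 129 and 141 CPM in stressed cells and was not called. Kank1, which links talin at adhesions to microtubules, fell by DESeq2 from 214 and 204 CPM to 104 and 112 CPM (adjusted p = 0.000443).

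Of 24 tested genes of collagen modification and cross-linking, DESeq2 called 3 higher and 0 lower, with a median of 0.39 and 17 positive. Serpinh1, the collagen chaperone HSP47 of the endoplasmic reticulum and itself a heat shock gene, rose by DESeq2 from 361 and 278 CPM to 755 and 1017 CPM (log2 fold change 1.48, SE 0.25, adjusted p = 9.46e-07). Plod2, a lysyl hydroxylase gene, rose by DESeq2 from 12.3 and 6.10 CPM to 22.6 and 31.2 CPM. Loxl2, a lysyl oxidase relative that cross-links collagen, rose by DESeq2 from 13.4 and 17.1 CPM to 37.8 and 31.2 CPM.

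Of 21 tested genes of other basement membrane, matrix and linked membrane proteins, DESeq2 called 3 higher and 1 lower, with a median of 0.15 and 15 positive. Fn1, which encodes fibronectin, the ligand of the Itga5 and Itgb1 pair, rose by DESeq2 from 3.75 and 3.56 CPM to 19.5 and 45.1 CPM (log2 fold change 3.15, SE 0.51, adjusted p = 3.46e-07). Sparc, a collagen-binding matrix gene, rose by DESeq2 from 153 and 125 CPM to 251 and 387 CPM. Nid1, which encodes the nidogen that links laminin to type IV collagen, rose by DESeq2 from 99.3 and 146 CPM to 197 and 281 CPM. Frem2, of the complex that joins epidermis to dermis, fell by DESeq2 from 19.8 and 14.1 CPM to 4.60 and 3.09 CPM. For all 9 genes called in the 3 lists the edgeR adjusted p was at least 0.121. Of these 9 DESeq2 calls, 5 held with control replicate 1 left out, 7 with control replicate 2 left out, 3 (Serpinh1, Sparc and Fn1) with stressed replicate 1 left out and 0 with stressed replicate 2 left out.

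The mural and muscle markers, Cspg4 first among them, lay higher in the stressed libraries beside the genes of these lists that rose, and their part was not tested. Most of their sum was Cspg4, and 3 of these 8 markers were under 1 CPM in every library. Whether Cspg4 came from mural or muscle cells was not tested, so the sum is not read as a measure of such cells. Melanocyte markers also lay higher in both stressed libraries. Keratinocyte markers lay lower in both, beside Fermt1, Kank1 and Frem2, which fell. The part of these 2 cell types was not tested either.

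**Figure D4:**
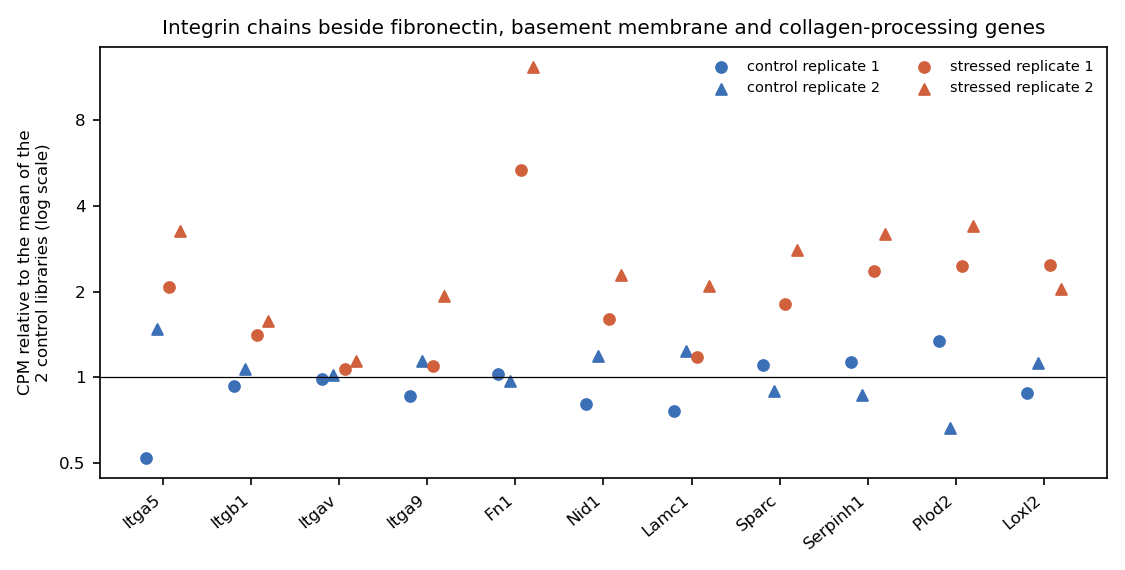
Level of 4 integrin chains, the laminin chain Lamc1 and 6 genes of the adhesion pathway in each library, relative to the mean of the 2 control libraries, on a log axis. Blue is control, orange is stressed, circles are replicate 1 and triangles replicate 2. Fn1 reaches 5.34 and 12.3 times the control mean in the stressed libraries and Itgb1 1.41 and 1.57 times, while Itga9 and Lamc1 overlap between the groups.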

How the data were processed

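RNA-seq libraries were made with Smart-Seq V4 from RNeasy-isolated RNA, per the labels' protocols. The authors deposited raw counts of reads for each gene, from featureCounts 1.6.1 at a minimum mapping quality of 30, by gene name on an mm10 annotation, unstranded, per the file headers. Per the submitters' processing notes, the tools were STAR 2.5.3, Trim Galore 0.4.1 and DESeq2 1.22.2, with mm10. The headers of stressed replicates 1 and 2 name alignments 2 and 3, so those numbers may differ from the authors' own.

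Genes were filtered by edgeR's filterByExpr (minimum count 10), scaled by TMM and tested by the two-sided quasi-likelihood F-test of edgeR 4.0.16 in R 4.3.3 on group alone, with Benjamini-Hochberg adjustment over 13348 genes at 0.05. SE is the absolute log2 fold change over the square root of F. CPM uses TMM-scaled totals. DESeq2 1.42.0, limma-voom (limma 3.58.1), 2 other scalings, 2 other filters, the replicate number as a block and leaving out each library were alternatives. DESeq2 with a library left out was added after seeing the data.

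Members named by rule are those called, the 3 highest per kilobase in each family, the largest separated rise and fall averaging at least 2 CPM, and chains of known assemblies. Others given with values were named outside this rule. Besides Itga1 and Col28a1 they include Itga7, Itgb6, Col4a5, Col5a2, Col5a3, Col11a2 and Col18a1. The members and lists were chosen with earlier results of these data known. The values of 1 member, which enters the counts, are not reported here. Replicate pairs differed beyond sampling noise (chi-square per degree of freedom 54.0 and 18.0). In simulated data of 13053 genes for this comparison, shifts were given only to genes averaging at least 10 CPM. Of these, edgeR found 27% of those shifted by 1 on the log2 scale and 93% of those shifted by 2. It made 16 false calls among 136. DESeq2 found 47% and 98%, with 48 false calls among 193. These shares do not hold for members averaging less than 10 CPM.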

Additional observations from a re-analysis of the deposited data

How the results depend on the processing

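No alternative changed the direction of Col7a1 or Lamb3. The edgeR count over all genes was 760 with no filter on low counts, of which 3 were members (Col7a1, Itga5 and Lamb3), and DESeq2 called 587, of which 2 were members. With 1 library left out it ranged from 0 to 739 genes and from 0 to 4 members by edgeR (628 without control replicate 1, 4.52% of genes, and 739 without control replicate 2, 5.34%), and from 44 to 800 genes and from 0 to 8 members by DESeq2. Family medians with 1 library left out ranged from -0.29 to 0.34 for integrins, from -0.64 to 0.18 for collagens and from -0.36 to 0.24 for laminins.

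Of 30 members named by the rule above, 10 changed sign when 1 library was left out, all of them uncalled. Members named outside that rule are not in this count. Their ranges were -0.49 to 0.43 for Col16a1, -8.19 to 0.12 for Col3a1 (the lowest against a library with a count of 0), -0.22 to 0.98 for Col4a1, -1.19 to 2.27 for Col4a2, -1.21 to 0.00019 for Itga3, -0.067 to 1.54 for Itga4, -0.26 to 0.11 for Itgb5, -0.14 to 0.53 for Lama3, -0.90 to 0.56 for Lamb1 and -0.33 to 0.24 for Lamb2. The cause was not tested. Among the other settings the sign turned only for Col4a2, to 0.21 with limma-voom and 0.24 with the replicate block.

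With the replicate number as a block edgeR called 0 genes and 0 members, and the integrin, collagen and laminin medians were 0.14, -0.26 and 0.06. The same-numbered libraries deviated together with a correlation of 0.172 over 13348 genes, but with 2 pairs the numbers are not shown to pair the samples. In the headers stressed replicate 1 carries the number 2, as control replicate 2 does. The block may therefore differ from the authors' own numbering.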

Other observations

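Integrin genes outside the rule, whose alpha chains carry letters and mark leukocytes, were near the floor. Itgal had 0 counts in all 4 libraries. Itgae had 3 and 15 counts in control and 2 and 0 in stressed cells, Itgam 1 and 7 and then 6 and 8, and Itgax 5 in control replicate 1 and 0 elsewhere.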
